A study of Mus musculus with 305 samples.

Results

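The nucleus accumbens (NAc) response of mice to a first heroin challenge was measured as 8 libraries of challenged mice (SH) against 8 of their controls (SS), and covers the 19756 genes that passed a filter on low counts, of 52636 in the deposited table. The 16 libraries were matched to their columns by the code in each sample title and belong to a series on 6 brain regions of 51 mice. All mice of the series are male and carry the genotype label Wild-type; strain and age are not given in the sources used here. SS and SH mice self-administered saline into a vein over 15 d, so that the challenge was the first heroin of SH, spent 30 d in withdrawal, received saline (SS) or heroin (SH) as a challenge and took a drug-seeking test of 2 h. The groups HS and HH, 8 mice each and used here for comparison and for the estimate of spread, had taken heroin over the same 15 d and were challenged with saline and heroin in that order. Each library is tissue RNA from 1 mouse with an id of its own, depleted of ribosomal RNA. The SH and SS libraries held 20.29 to 42.41 M counts (M, mega-counts), with medians of 31.7 M in SH and 29.1 M in SS. Levels are given as CPM, a gene's counts scaled to a common library size.

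Heroin is an opioid agonist whose metabolites act at the mu opioid receptor, a receptor coupled to inhibitory G proteins. In the reward circuit it silences inhibitory neurons that hold back dopamine neurons, so that more dopamine reaches the NAc. Most neurons of the NAc are GABAergic projection neurons. One class carries the D1 dopamine receptor with the peptide dynorphin, the other the D2 receptor with enkephalin. Dopamine and glutamate reach the nucleus of these cells through cAMP, calcium and MAP kinases, which switch on immediate early genes such as Fos.

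The labelled tissue was checked against marker genes. In RPKM (CPM per kilobase of exon), the SS mean was 590 for Penk (the precursor of enkephalin), 268.7 for Ppp1r1b (the dopamine-regulated phosphatase inhibitor DARPP-32), 111.6 for Drd1 and 64.5 for Drd2, and the score of 13 projection neuron markers (mean log2 CPM) was between 9.14 and 9.68 in SS and between 9.31 and 9.54 in SH. Markers of cortical excitatory neurons were at low levels in most libraries and higher in some. Their score, over 12 genes, was 3.36, 4.495 and 4.55 in SH mice 10, 19 and 27 and 4.01 in SS mouse 22, and between 0.53 and 2.16 in the other 12. In HS and HH, 5 of 16 libraries lay above 2.5. The cause of these differences was not tested, and values without these 9 libraries are given below beside the results they move. In bulk tissue, fewer cells of a type and less RNA per cell cannot be told apart.

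Across the 19756 genes, the first heroin challenge left 1 called change in the NAc. Acer2, which encodes the alkaline ceramidase of the Golgi that splits ceramide into sphingosine and fatty acid, fell after heroin. Calls were made by edgeR's quasi-likelihood test at an adjusted p under 0.05 (Benjamini-Hochberg), so that 0.00506% of genes were called, none of them higher in SH. At an unadjusted p under 0.05, 670 genes (3.39%) differed, 1.35% of those tested being higher and 2.04% lower in SH. The median log2 difference over all genes was -0.01.

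Acer2 lies on the plus strand of chromosome 4 (GRCm38, 86874396 to 86934822). Its level was 16.0 CPM in the lowest, 18.4 in the median and 26.7 in the highest SS library, and 8.29, 11.4 and 13.2 CPM in SH. Every SH library was below every SS library, and Acer2 was the only gene tested whose groups did not overlap (0.00506% of genes in this direction). The mean fell from 20.0 ± 3.80 to 11.3 ± 1.84 CPM (SD, n = 8 each). The fall was 0.82 on the log2 scale with a standard error of 0.15, at an adjusted p of 0.0350 by edgeR. The call depended on single libraries: leaving out each of the 32 NAc libraries in turn gave adjusted p-values of 0.00585 to 0.222, with 19 of 32 fits under the threshold and log2 differences of -0.86 to -0.75. The call was lost without any of SS mice 8, 15, 22, 26 and 28, SH mice 10, 19, 24, 27 and 30, HS mice 3 and 11 or HH mouse 1. Without the 9 libraries of high cortical score the difference was -0.71 (unadjusted p = 6.32e-05), with no gene called.

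Of 37 genes of sphingolipid metabolism tested, 13 were higher and 24 lower, with a median log2 difference of -0.03, and Acer2 was the 1 member at an unadjusted p under 0.05. Over all genes 52.5% were lower and 2.04% were lower at that p. The other ceramidases were close to their control level: Acer3, Asah1 (the acid ceramidase of lysosomes) and Asah2 had differences of 0.00 ± 0.09, 0.00 ± 0.07 and -0.01 ± 0.10 (log2 ± SE). S1pr1, the receptor for sphingosine 1-phosphate with the highest level per length among the 4 tested, differed by -0.07 ± 0.07.

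Genes whose level followed Acer2 within groups were sought over all 32 libraries and 14915 genes, after the group means were removed. The highest correlations belonged to Fmo2 (0.73), Vwf (0.73), Mertk (0.72), Cd52 (0.68) and Ptprb (0.67), and among the lowest were those of Msmo1 (-0.72) and 1700120C14Rik (-0.68). Vwf (von Willebrand factor) and Ptprb are made by endothelial cells. Msmo1 is an enzyme of cholesterol synthesis. Depth (20.29 to 42.41 M counts) and cortical neuron score (0.41 to 4.55) differed between these libraries. Their part in the correlations was not tested, and the values are a description with no test.

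The gene next in order was Xdh, which encodes the xanthine dehydrogenase that makes uric acid from purines. It had 14.8, 21.2 and 24.8 CPM in the lowest, median and highest SS library and 11.2, 15.2 and 17.7 CPM in SH. The groups overlapped through SS mice 6 and 28, although all 8 SH libraries were below the SS mean, as for 1.14% of all genes. The difference was -0.47 ± 0.10 at an adjusted p of 0.228, and DESeq2 called it. From the third gene on, the adjusted p was 1.00, so that all genes below are given as differences that did not pass the test. They are the 12 higher and 12 lower genes with the smallest unadjusted p and the members of gene lists.

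**Figure D1:**
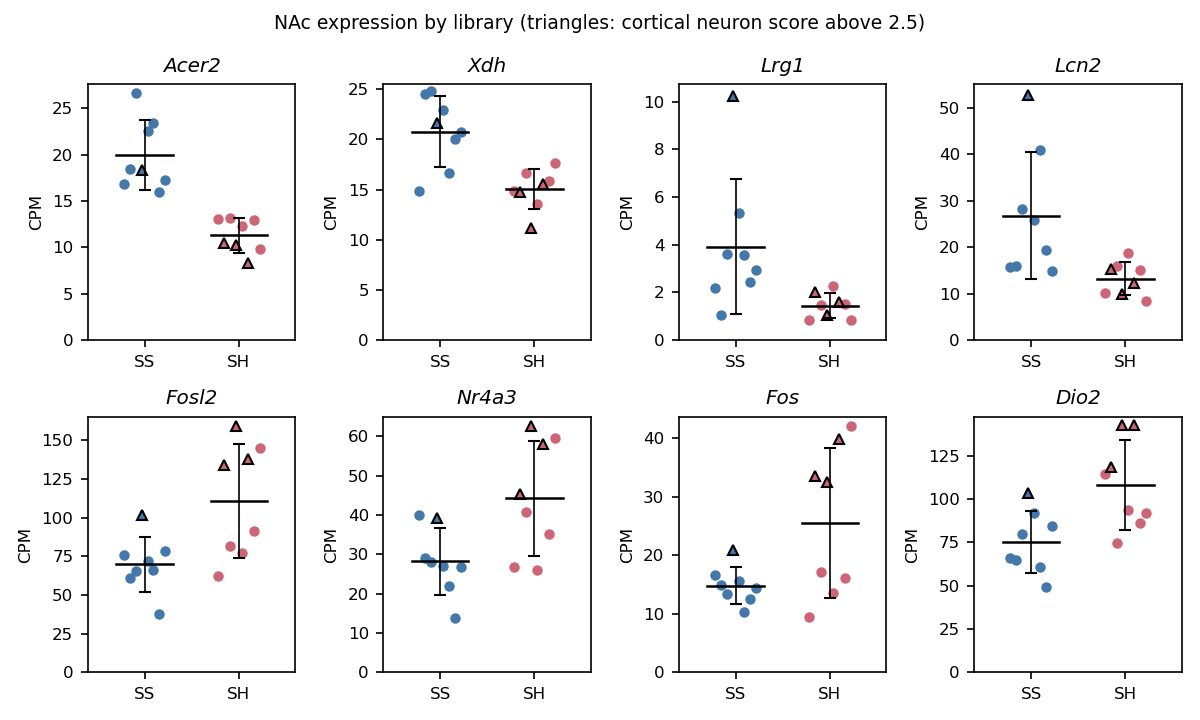
Expression of 8 genes in CPM (vertical axes, from 0) in the 8 SS and 8 SH libraries; points are single libraries, triangles those with a cortical neuron score above 2.5, bars the mean and whiskers the SD. Acer2 has no overlap between the groups, and in Fos 4 SH libraries lie between 32.4 and 42.0, above all SS libraries, with the other 4 between 9.45 and 17.2.

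Genes switched on by neuronal activity were mostly higher after heroin. Of 26 activity-induced transcription factors 22 were higher in SH, with a median log2 difference of 0.23, and 10 were at an unadjusted p under 0.05, all of them higher; over all genes 47.5% were higher and 1.35% were higher at that p. Fosl2, a Fos-family partner in the AP-1 complex, had 37.8, 69.3 and 101.5 CPM in the lowest, median and highest SS library and 62.2, 112.8 and 159 CPM in SH. Nr4a3, an orphan nuclear receptor induced within minutes of stimulation, had 13.9, 27.6 and 39.9 CPM in SS and 26.0, 43.0 and 62.5 CPM in SH. In both genes SH mice 10, 19, 27 and 30 were above all SS libraries and SH mice 4 and 24 were within the SS range. The differences were 0.67 ± 0.17 (unadjusted p = 0.000339) for Fosl2 and 0.65 ± 0.17 (0.000640) for Nr4a3.

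Fos itself was split within the challenged group. SS libraries held 10.4, 14.6 and 20.8 CPM (lowest, median, highest) and SH libraries 9.45, 24.8 and 42.0 CPM. SH mice 10, 19, 27 and 30 had 32.4 to 42.0 CPM, above every SS library, and SH mice 4, 17, 24 and 29 had 9.45 to 17.2 CPM, below the highest SS library, with mouse 4 under all of SS. Of the 4 high mice, 10, 19 and 27 are those with high cortical neuron scores, whereas mouse 30 had the highest Fos at a score of 1.14. The difference was 0.79 ± 0.25 (unadjusted p = 0.00304).

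Atf3, a stress-responsive factor of the CREB and ATF family, was at a low level, with 0.098, 1.00 and 2.00 CPM in SS and 1.15, 2.29 and 4.00 CPM in SH. All 8 SH libraries were above the SS mean, although the groups overlapped, and the difference was 1.10 ± 0.38 (unadjusted p = 0.00571). Of the rest of the list, Nr4a1 (0.44 ± 0.18), Crem (0.35 ± 0.13), Egr4 (0.31 ± 0.15), Junb (0.26 ± 0.11) and Tiparp (0.25 ± 0.10) were at an unadjusted p under 0.05, as was Nr4a2 with a wide error (1.57 ± 0.71). Npas4, which responds to calcium in neurons, was at 0.36 ± 0.24 and Egr3 at -0.11 ± 0.08. The members thus did not move alike: Egr1 (0.17 ± 0.17), Jun (0.09 ± 0.14) and Btg2 (0.04 ± 0.12) were within about 1 standard error of their controls.

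Many of these genes are known targets of CREB, the factor that cAMP and calcium switch on through a short DNA element. The 250 bases before the start of transcription are shown for 2 of them and for Acer2, from RefSeq on GRCm38.p6, with the core of that element, TGACGT or its complement ACGTCA, in capitals. The windows lie at chr12:85473640-85473889 on the plus strand (Fos), chr1:191183334-191183583 on the minus strand (Atf3) and chr4:86874164-86874413 on the plus strand (Acer2), each printed in the direction of its gene.
Fos: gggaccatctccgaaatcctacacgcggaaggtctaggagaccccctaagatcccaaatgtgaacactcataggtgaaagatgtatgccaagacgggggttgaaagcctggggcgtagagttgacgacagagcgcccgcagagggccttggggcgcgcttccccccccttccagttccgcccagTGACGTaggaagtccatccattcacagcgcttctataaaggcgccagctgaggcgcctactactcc
Atf3: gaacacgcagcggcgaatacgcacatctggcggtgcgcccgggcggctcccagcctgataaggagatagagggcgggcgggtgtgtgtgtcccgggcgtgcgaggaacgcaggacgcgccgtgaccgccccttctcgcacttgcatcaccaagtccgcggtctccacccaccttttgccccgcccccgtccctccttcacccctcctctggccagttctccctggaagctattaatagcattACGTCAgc
Acer2: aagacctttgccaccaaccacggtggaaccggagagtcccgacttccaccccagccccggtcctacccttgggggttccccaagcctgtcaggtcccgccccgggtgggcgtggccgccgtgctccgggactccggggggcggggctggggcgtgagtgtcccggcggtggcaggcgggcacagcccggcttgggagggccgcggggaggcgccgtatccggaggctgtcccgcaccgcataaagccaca
The match begins 66 bases before the start in Fos and 8 bases before it in Atf3, and the Acer2 window holds none. Nr4a3 holds 3 matches, Egr4 and Npas4 hold 2 each, and Fosl2, Nr4a1 and Junb none. Of the 20 transcription factors of the list with a window, 8 (40%) hold the core, against 2121 of 32817 windows of this length in all (6.46%). The list is counted per gene, over any window of that gene, and the whole per window, so these shares are in unlike units. The AP-1 site TGANTCA was in 1 of the 20 (5%) and in 6.75% of all windows, and the CArG box in 1 (5%) and in 1.47%, on either strand. The core was chosen after the windows were seen, a match is a match of letters only, and the list was picked as activity-induced, so that the share describes the list and not the response to heroin.

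Of 20 effectors of activity tested, 16 were higher, with a median of 0.14, and 4 were at an unadjusted p under 0.05: Bdnf, Pcsk1, Trib1 and Arc. All 4 were higher, where 47.5% of all genes were higher and 1.35% were higher at that p. Bdnf, a neurotrophin that NAc neurons make little of and receive from cortex, had 0.227, 0.687 and 6.94 CPM in SS and 0.579, 1.11 and 16.8 CPM in SH. The 4 highest Bdnf values of the 16 were those of SS mouse 22 and SH mice 10, 19 and 27, the libraries of high cortical score. Its difference was 1.69 ± 0.75 (unadjusted p = 0.0292), and ran from 0.98 without SH mouse 19 to 2.83 without SS mouse 22. Arc, a regulator of glutamate receptors at synapses, had 66.5, 103.4 and 129.1 CPM in SS and 76.8, 117.95 and 195 CPM in SH, a difference of 0.38 ± 0.18 (unadjusted p = 0.0420). Scg2 (0.10 ± 0.08), Vgf (0.14 ± 0.09) and Homer1 (0.05 ± 0.09), which activity also raises in neurons, were within 2 standard errors of control.

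Genes that restrain MAP kinase signalling after it has been switched on gave 13 higher and 5 lower of 18, with a median of 0.07. The share of higher genes in the whole fit was 47.5%. Dusp4, a nuclear phosphatase that inactivates MAP kinases, had 5.46, 6.92 and 9.15 CPM in SS and 7.08, 10.4 and 12.4 CPM in SH. All 8 SH libraries were above the SS mean, as for 1.59% of all genes, and the difference was 0.53 ± 0.14 (unadjusted p = 0.000575). Dusp6, its cytoplasmic relative, was at 0.33 ± 0.12 (0.00832). Gem, a small GTPase that limits calcium channels and is itself induced by activity, is a member of neither this list nor the other activity lists. It had 1.08, 1.91 and 4.25 CPM in SS and 1.88, 4.01 and 6.35 CPM in SH (0.79 ± 0.22, unadjusted p = 0.00112).

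Results on activity genes moved with the libraries of high cortical score. Without those 9 libraries, chosen after the scores were seen, the differences were 0.49 for Fosl2 (unadjusted p = 0.00492), 0.50 for Nr4a3 (0.00878), 0.42 for Dusp4 (0.0129), 1.03 for Gem (0.000513) and 0.83 for Atf3 (0.0386). Fos was at 0.50 (0.0803) and Arc at 0.17 (0.368). With fewer mice in the fit, genes at an unadjusted p under 0.05 over the whole table fell to 0.59 (higher) and 0.54 (lower) times their number. The transcription factors had a median of 0.20, beside 0.23 with all libraries, with 4 at that p in place of 10. When SH mouse 30 alone was left out, the median was 0.13 with 6. Without the 9 libraries the effectors had a median of 0.09 with none. Dusp6 went from 0.33 to 0.18 (0.139), Pcsk1, which cleaves peptide precursors, from 0.47 to 0.14 (0.278), and Trib1 from 0.36 to 0.13 (0.476). Bdnf went from 1.69 to 0.41 (0.289), C1ql3, a secreted synaptic protein, from 1.11 to 0.29 (0.227), and Neurod6, a marker of cortical excitatory neurons, from 1.84 to 0.33 (0.569). Crhbp, which binds and holds back corticotropin-releasing hormone, went from 0.64 to 0.35 (0.0596). Of the 12 higher genes, 10 were still at an unadjusted p under 0.05 without these libraries, as were 11 of the 12 lower; Nipal2 was the exception among the lower, at -0.20 (0.139). Both sets of 12 were picked by their p in a fit that included the libraries kept here, so these counts are no independent test. With all 32 libraries and the cortical score as a term of the fit, Acer2 was called (-0.75), Fosl2 was at 0.505 (unadjusted p = 0.000202), Nr4a3 at 0.50 (0.00135), Fos at 0.58 (0.0112) and Dusp6 at 0.21 (0.0229). Arc was then at 0.20 (0.168) and Bdnf at 0.44 (0.0726), the transcription factors had a median of 0.12 with 9 at an unadjusted p under 0.05, and the effectors had a median of 0.10 with none.

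**Figure D2:**
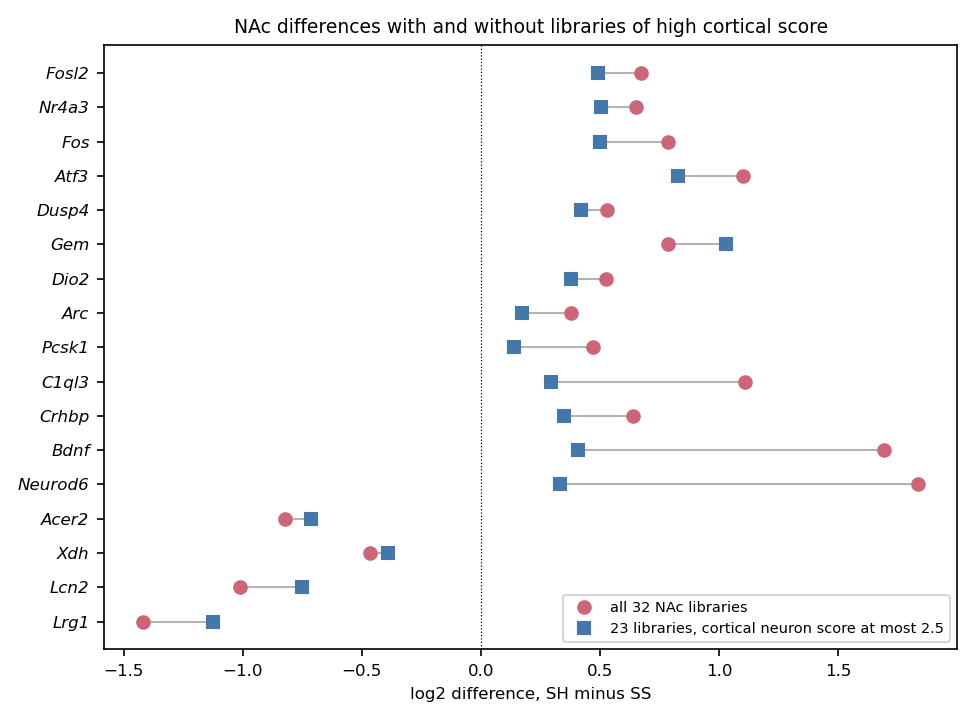
Log2 difference of SH minus SS (horizontal axis) for 17 genes in all 32 NAc libraries (circles) and in the 23 libraries with a cortical neuron score of at most 2.5 (squares). Bdnf and Neurod6 shift the farthest, from 1.69 to 0.41 and from 1.84 to 0.33, while Fosl2 goes from 0.67 to 0.49 and Acer2 from -0.82 to -0.71.

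The other genes among the 12 higher, like Gem, Crhbp and C1ql3 above, were not from the activity lists. Dio2, the deiodinase with which astrocytes turn thyroxine into active thyroid hormone, had 49.4, 73.1 and 103.5 CPM in SS and 74.6, 104.2 and 142.9 CPM in SH. All 8 SH libraries were above the SS mean while the ranges overlapped, and the difference was 0.53 ± 0.14 (unadjusted p = 0.000402; 0.38 without the 9 libraries). Of the 13 genes of the thyroid hormone list, Dio2 included, 5 were higher, with a median of -0.03, and the receptors Thra and Thrb were at -0.03 ± 0.08 and -0.05 ± 0.08. Fgfr2, a receptor for fibroblast growth factors, had 47.0, 56.8 and 68.3 CPM in SS and 57.7, 71.3 and 73.9 CPM in SH (0.26 ± 0.06, unadjusted p = 0.000236). Nes, the intermediate filament nestin, had 6.09, 10.2 and 12.7 CPM in SS and 10.4, 13.7 and 16.6 CPM in SH (0.44 ± 0.13, unadjusted p = 0.00222). Both had all 8 SH libraries above the SS mean, as did the kinase Map3k19 (0.47 ± 0.13), Lacc1 (0.55 ± 0.17) and the ammonium transporter Rhcg (0.98 ± 0.25), the last at only 0.683 CPM on average in SS.

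Genes of interferon signalling and inflammation were mostly lower after heroin. Of 27 interferon and inflammation genes 23 were lower in SH, with a median of -0.24, and 4 were at an unadjusted p under 0.05, all lower, where 52.5% of all genes were lower and 2.04% were lower at that p. Their score was 1.32, 1.57 and 1.71 in the lowest, median and highest SS library and 1.17, 1.28 and 1.56 in SH. All 8 SH libraries were below the SS mean, and the ranges overlapped. Il1r1, the receptor for interleukin 1, had 5.18, 8.30 and 16.8 CPM in SS and 4.55, 6.14 and 7.33 CPM in SH, and Osmr, the receptor subunit for oncostatin M, 6.99, 8.37 and 13.6 CPM in SS and 5.44, 6.58 and 7.44 CPM in SH. All 8 SH libraries were below the SS mean in both, at differences of -0.56 ± 0.17 (unadjusted p = 0.00177) and -0.52 ± 0.15 (0.00132). Without the 9 libraries of high cortical score Il1r1 was at -0.41 (unadjusted p = 0.0201) and Osmr at -0.42 (0.0203). Isg15, an interferon-induced ubiquitin-like protein, was at -0.87 ± 0.36 and Serpina3n, a protease inhibitor of reactive glia, at -0.57 ± 0.24 (-0.45 without the 9 libraries, unadjusted p = 0.0828). Without those libraries the list had a median of -0.16, with 3 members at an unadjusted p under 0.05. Irf9 (-0.06 ± 0.11), which carries the interferon signal, was near control. The interferon-induced GTPase Iigp1, 1 of the 12 lower genes but not a member of this list, was at -1.09 ± 0.29. Like Iigp1, Xdh and Lrg1, these others of the 12 lower genes came from no list: Galnt15 (-0.56 ± 0.14), which starts O-linked sugar chains, Fam78a (-0.52 ± 0.13), Apool (-0.40 ± 0.12), a protein of the inner mitochondrial membrane, Nipal2 (-0.38 ± 0.12) and the Notch ligand Dll1 (-0.35 ± 0.11).

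The secreted acute-phase proteins spread widely among controls. Lrg1 had 1.06, 3.25 and 10.2 CPM in SS and 0.829, 1.49 and 2.28 CPM in SH, and Lcn2, which withholds iron from bacteria, 14.9, 22.7 and 52.8 CPM in SS and 8.34, 13.7 and 18.7 CPM in SH. All 8 SH libraries were below the SS mean in both, and the highest SS value of both came from mouse 22. The differences were -1.42 ± 0.41 (unadjusted p = 0.00122) for Lrg1 and -1.01 ± 0.32 (0.00337) for Lcn2; without the 9 libraries of high cortical score, SS mouse 22 among them, they were -1.12 (0.0189) and -0.75 (0.0665).

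Marker genes of vessels and of the brain's covering moved in the same direction as these. Each of 11 endothelial markers was lower (median -0.13), 2 of them at an unadjusted p under 0.05 (Ly6c1 at -0.26 ± 0.09 and Flt1 at -0.22 ± 0.09), and 8 of 9 mural cell markers were lower, with Vtn (vitronectin) at -0.23 ± 0.07. Over all genes 52.5% were lower and 2.04% were lower at that p. Of 11 markers of meningeal fibroblasts 10 were lower, with a median of -0.39, and Dcn (decorin) was at -0.62 ± 0.20. This median varied with the libraries used: it was -0.12 when SS mouse 22 alone was left out. It was -0.18 with limma-voom, -0.07 within mouse set 1 and -0.43 within mouse set 2. Without the 9 libraries of high cortical score, SS mouse 22 among them, it was -0.31. Dcn was then at -0.32 (unadjusted p = 0.121) and Flt1 at -0.14 (0.161). The meningeal score ran from 0.27 to 2.25 in SS, the highest in mouse 22, and from 0.47 to 1.21 in SH; Col1a2, a collagen of these cells, was at 0.07 ± 0.19. The microglial list had 11 of 12 lower with a median of -0.12 and none at an unadjusted p under 0.05. With the meningeal and choroid plexus scores as terms of the fit, the interferon and inflammation median was -0.19 with 4 members at that p, Acer2 was at -0.79 and no gene was called. The part of vessels and meninges in the lower genes was not tested further.

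**Figure D3:**
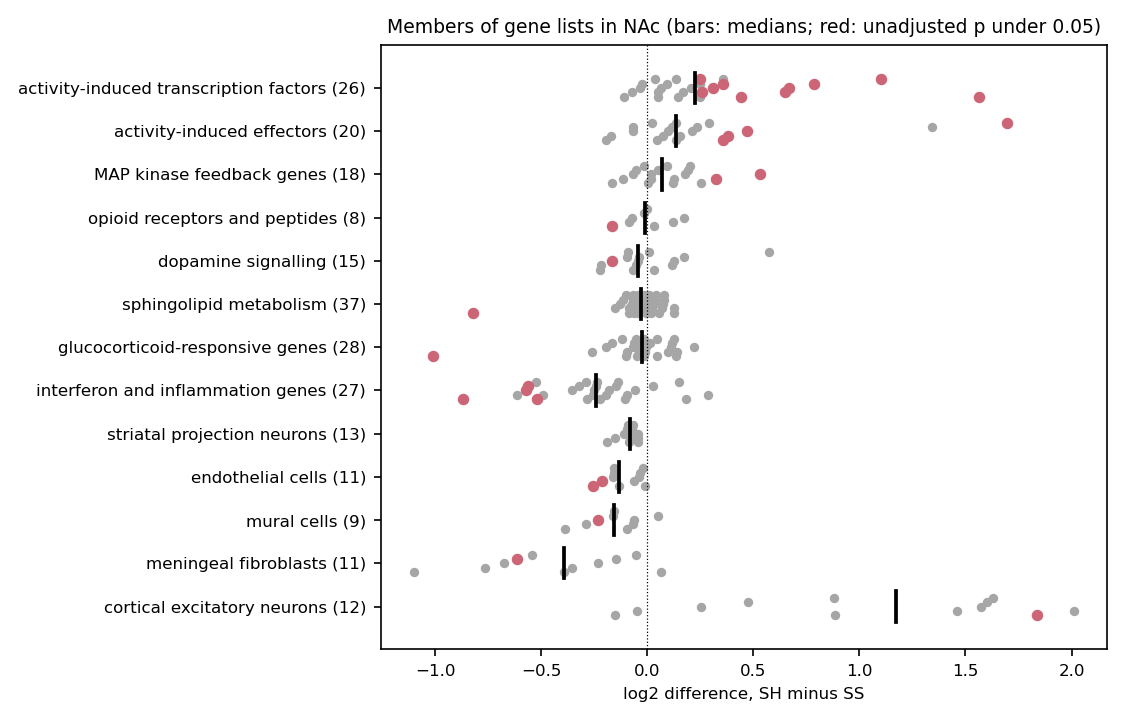
Log2 difference of SH minus SS (horizontal axis) for every tested member of 13 gene lists, with the number tested in brackets; black bars are medians and red points have an unadjusted p under 0.05. Activity-induced transcription factors lie mostly to the right (median 0.23), interferon and inflammation genes (-0.24) and meningeal markers (-0.39, or -0.12 without SS mouse 22) to the left, and the cortical neuron markers spread widely (median 1.17).

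The receptors and peptides through which heroin and dopamine act showed small differences. In RPKM, the SS mean was 2.94 for Oprm1, the mu receptor, 6.55 for Oprk1, the kappa receptor, and 7.77 for Oprd1, the delta receptor. Oprm1 had 21.0, 22.3 and 27.6 CPM in SS and 18.1, 24.1 and 26.6 CPM in SH, a difference of -0.02 ± 0.10, and Oprk1 and Oprd1 were at -0.07 ± 0.11 and -0.08 ± 0.11. Penk had 801, 975 and 1107 CPM in SS and 707, 838 and 1057 CPM in SH (-0.16 ± 0.08, unadjusted p = 0.0486), with 6 of 8 SH libraries below the SS mean. The lowest SH values were those of mice 10, 19 and 27, the SH libraries of high cortical score, and without the 9 such libraries Penk was at -0.07 (unadjusted p = 0.401). Pdyn, the dynorphin precursor, was at 0.12 ± 0.12. Drd2 had 120, 172 and 183 CPM in SS and 135.1, 144.4 and 162 CPM in SH; the SH range lay inside that of SS, and all 8 SH libraries were below the SS mean (-0.17 ± 0.08, unadjusted p = 0.0349; -0.17 and 0.0811 without the 9 libraries). Drd1 was at -0.05 ± 0.08.

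These small differences ran beside the markers of projection neurons in general. All 13 such markers were lower in SH, by 0.04 to 0.19 on the log2 scale, with a median of -0.08 and none at an unadjusted p under 0.05. In the whole fit 52.5% of genes were lower and 2.04% were lower at that p. Of 6 markers tested for the D2 class 5 were lower (median -0.10, 2 at that p) and of 8 for the D1 class 4 (median -0.03, 1 at that p, Ebf1 at -0.23 ± 0.11 and, without the 9 libraries, -0.11). RGS genes, which shorten G protein signals, had 15 of 16 lower with a median of -0.08 and none at that p; Rgs2, which activity induces, was the 1 higher (0.07 ± 0.09). Cartpt, a peptide of the ventral striatum, had 20.1, 42.9 and 62.95 CPM in SS and 27.7, 61.4 and 83.3 CPM in SH (0.53 ± 0.21, unadjusted p = 0.0180; 0.42 and 0.0975 without the 9 libraries).

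Of 28 glucocorticoid-responsive genes 10 were higher and 18 lower, with a median of -0.03 and Lcn2 as the 1 member at an unadjusted p under 0.05. Fkbp5, a chaperone partner that glucocorticoids induce, averaged 55.8 ± 8.22 CPM in SS and 55.4 ± 5.55 CPM in SH (SD, n = 8; -0.01 ± 0.08). Sgk1 was at -0.10 ± 0.09 and the clock gene Per1 at 0.11 ± 0.13. Heat shock and cold-inducible genes, which follow body temperature, had 17 of 22 higher with a median of 0.04 and none at that p. Among all genes 47.5% were higher and 52.5% lower.

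The same challenge in mice with a heroin history sets other mice against each other. All groups were fitted together with a shared estimate of spread, so this comparison is not independent of the one above. By edgeR 0 of 19756 genes (0.0%) were called in HH against HS. Because the 24 genes were picked by their p in SH against SS, smaller values elsewhere come with that choice. Of the 12 higher genes 11 were also higher in HH than in HS, the exception being Lacc1, and 7 of the 11 were at an unadjusted p under 0.05, where 57.1% of all genes had the same direction in both and 1.33% were higher in HH at that p. Their median was 0.34 in HH minus HS and 0.60 in SH minus SS. Markers of cortical excitatory neurons also kept their direction, in 12 of 12 genes. The median of these markers was 0.79 in HH minus HS and 1.17 in SH minus SS. No fit of HH against HS with the cortical score was run, so its part in the shared direction was not tested. Fosl2 was at 0.50 ± 0.17 (unadjusted p = 0.00548), Nr4a3 at 0.55 ± 0.17 (0.00301), Atf3 at 1.12 ± 0.38 (0.00527), Dio2 at 0.41 ± 0.14 (0.00449), Map3k19 at 0.46 ± 0.13 (0.00130) and Fos at 0.66 ± 0.25 (0.0111). Of the 12 lower genes 11 had the same sign, with a median of -0.08 beside -0.52 in SH minus SS, and Acer2 alone was at an unadjusted p under 0.05 (-0.43 ± 0.14, p = 0.00459), where 1.37% of all genes were lower in HH at that p.

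Whether the response differed with history was tested by the interaction, (HH minus HS) minus (SH minus SS). By edgeR 0 of 19756 genes (0.0%) were called, with the lowest adjusted p at 1.00, and 374 (1.89%) were at an unadjusted p under 0.05; DESeq2 called 0 as well. The genes named here were picked by their p in SH against SS, a difference that the interaction subtracts. Their interaction values and unadjusted p-values are therefore biased by that choice. Xdh had the smallest unadjusted p of the 24 genes: it was at 0.04 ± 0.10 in HH minus HS, an interaction of 0.51 ± 0.14 (unadjusted p = 0.000674). Lacc1 followed with -0.70 ± 0.24 (0.00546). For Acer2 the interaction was 0.39 ± 0.20 (0.0648), for Isg15 1.34 ± 0.50 (0.0109), for Lcn2 1.15 ± 0.45 (0.0152) and for Lrg1 1.30 ± 0.56 (0.0265). For Fosl2, Nr4a3 and Atf3 it was -0.17 ± 0.24, -0.10 ± 0.25 and 0.02 ± 0.41.

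**Figure D4:**
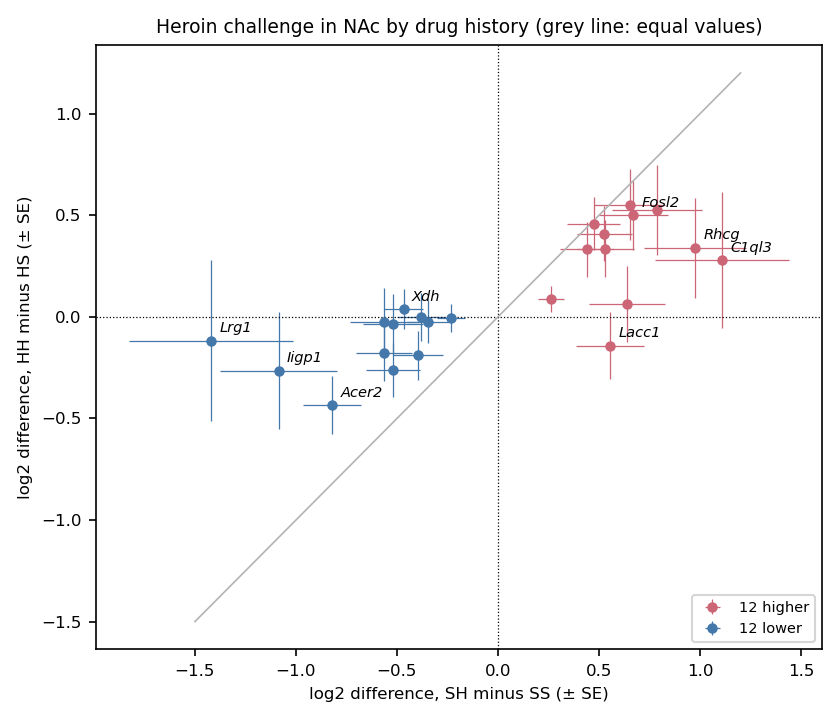
Log2 difference with standard error after the heroin challenge in saline-history mice (SH minus SS, horizontal axis) and in heroin-history mice (HH minus HS, vertical axis) for the 12 higher (red) and 12 lower (blue) genes. The medians are 0.60 and 0.34 for the higher genes and -0.52 and -0.08 for the lower genes, and Acer2 is at -0.82 and -0.43.

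The response of the NAc was then set against that of the dorsal striatum (dStri) and the prefrontal cortex (PFC) of the same 16 mice. Acer2 differed by -0.64 ± 0.13 in dStri and by -1.10 ± 0.13 in PFC, beside -0.82 ± 0.15 in NAc. Osmr was close in all 3 regions (-0.52 ± 0.15 in NAc, -0.50 ± 0.13 in dStri and -0.58 ± 0.13 in PFC), and so were Xdh (-0.47 ± 0.10, -0.33 ± 0.12 and -0.40 ± 0.11) and Lrg1 (-1.42 ± 0.41, -1.04 ± 0.32 and -1.55 ± 0.34). Fosl2 was at 0.67 ± 0.17 in NAc, 0.36 ± 0.17 in dStri and 0.32 ± 0.16 in PFC, and Fos at 0.79 ± 0.25, 0.16 ± 0.24 and 0.40 ± 0.20. The cortical marker Neurod6 was at 1.84 ± 0.86 in NAc, 3.49 ± 0.97 in dStri and 0.11 ± 0.46 in PFC. Fits by cortical score were run for NAc only, so its part in the dStri values was not tested. The regions come from the same animals and are no independent repeat of the groups.

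No named gene passed the test for a difference between regions. Between NAc and dStri 0 of 19610 genes (0.0%) were called by edgeR, with 566 (2.89%) at an unadjusted p under 0.05, and with the mouse as a replicate block, which pairs the 2 regions of an animal, 0 were called and 555 (2.83%) were at that p. Between NAc and PFC 1 of 20026 genes (0.00499%) was called, Itprid1, and 570 (2.85%) were at an unadjusted p under 0.05; with the replicate block 0 were called and 515 (2.57%) were at that p. Itprid1 is a gene of the PFC, with means of 3.45 ± 0.79 CPM in SS and 3.47 ± 0.75 CPM in SH there (SD, n = 8). In NAc 0 to 1 reads were counted per SS library and 1 to 15 per SH library, which is under the filter of the NAc comparison. The named genes with the smallest unadjusted p for a difference from dStri were Lacc1 (0.00235) and Nipal2 (0.00675), and from PFC Rhcg (0.00103), which was at 0.98 ± 0.25 in NAc and -0.65 ± 0.32 in PFC.

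**Figure D5:**
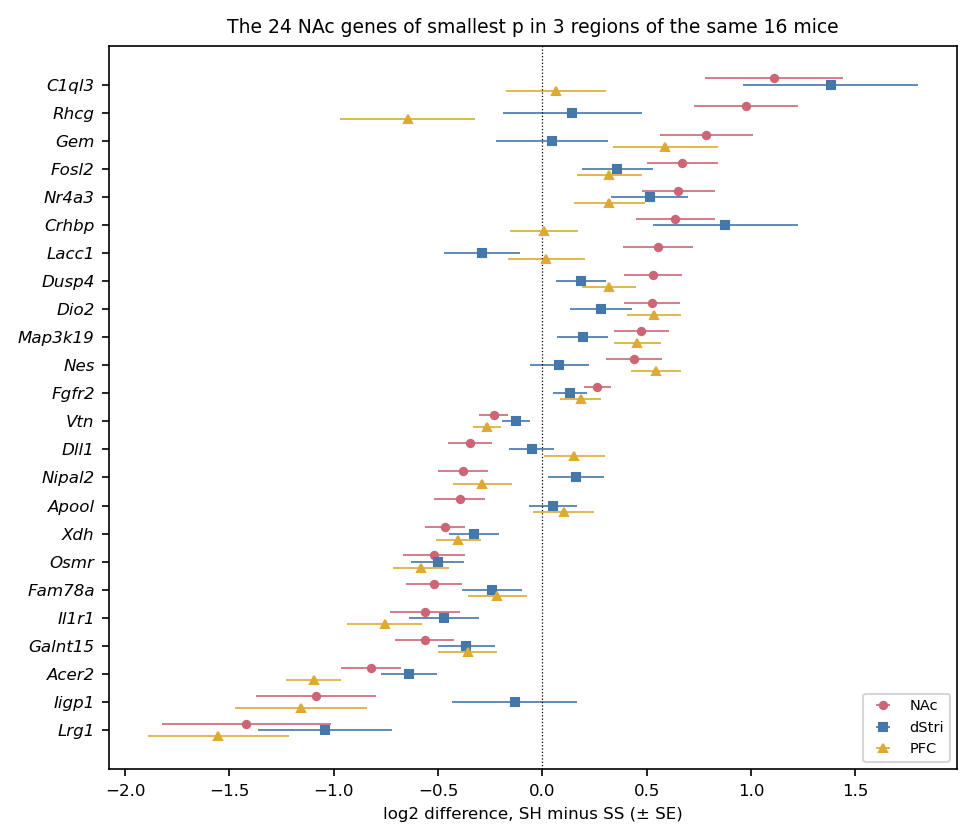
Log2 difference of SH minus SS with standard error (horizontal axis) in NAc (circles), dStri (squares) and PFC (triangles) of the same 16 mice, for the 12 higher and 12 lower genes of NAc. Acer2, Xdh, Osmr, Il1r1 and Lrg1 lie to the left in all 3 regions, whereas Lacc1 (0.55 in NAc, -0.29 in dStri) and Rhcg (0.98 in NAc, -0.65 in PFC) do not keep their sign. Among the lower genes, Apool (-0.40 in NAc, 0.05 in dStri, 0.10 in PFC), Nipal2 (-0.38 in NAc, 0.16 in dStri) and Dll1 (-0.35 in NAc, 0.15 in PFC) do not either.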

How the data were processed

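The values are raw read counts per Ensembl gene that the authors deposited in 1 table; the tools named per the submitters' processing notes are FastQC, HISAT2, SAMtools and HTSeq, with the build mm10, and their versions and annotation are not given in the sources used here. Per the labels' protocols, the libraries are strand-specific and read from both ends. Every value column had a sample (0 without). Names and coordinates come from GENCODE M21 (GRCm38), which gave 52403 of 52636 genes a symbol; 43 of 56 named genes had a RefSeq promoter window.

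The 32 NAc libraries of SS, SH, HS and HH were fitted together in edgeR 4.0.16 (R 4.3.3): minimum count 10 by its filter, TMM factors, quasi-likelihood test, 1 coefficient per group, adjustment over all genes, prior count 1. A standard error is the log2 difference divided by the square root of F. Per-length levels use the summed exon length. The fits with dStri and PFC hold the 16 SH and SS mice in both regions; the mouse id pairs the regions by design, and the median correlation of a mouse's deviations over 8664 genes was 0.239 (NAc and dStri) and 0.109 (NAc and PFC). Over 56 pairs of same-group libraries chi-square over its degrees of freedom was at least 8.79, so none was a repeat, and 0 NAc libraries stood over 4 scaled deviations below the others in rank correlation. P-values measure the spread between mice. The model was tested on simulated data.

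Named were the 12 higher and 12 lower genes of smallest unadjusted p (averaging 1 CPM or more over SS and SH, clone and gene-model names left out), members of 35 lists (523 genes, 500 tested, 1 without a symbol match) at an unadjusted p under 0.05 up to 4 per list, a fixed set of receptors, peptides and hormone markers, and the genes most like Acer2; other list members were named for their role after their values were seen, and some genes are not reported here. Members and lists were chosen with earlier results of these data known. Alternatives used DESeq2 1.42.0, limma 3.58.1, other factors, filters, covariates and left-out libraries. The mouse set is the code set of a mouse's BLA library (set 1 has 4 SH and 3 SS mice, set 2 has 4 and 5); whether it marks a batch is not given in the sources used here.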

Additional observations from a re-analysis of the deposited data

Results flagged for a closer look

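Among the named genes, the highest and lowest library of each group of 8 were compared with the rest by Dixon's ratio, in 56 genes and 2 groups. The ratio is the gap to the nearest library over the whole range, taken on log2 CPM, and was set against its 95% critical value. Levels below are printed in CPM, so the ratios cannot be read off them directly. Chance marks about 1 in 20; 5 were marked, all in SS. Bdnf in SS mouse 22 was 6.94 CPM (ratio 0.552), with the other SS libraries at 0.227 to 1.10; this library also has the high cortical neuron score of 4.01. Atf3 in SS mouse 6 was 0.098 CPM (0.674), with the others at 0.798 to 2.00. Iigp1 in SS mouse 6 was 0.927 CPM (0.614), with the others at 1.58 to 2.20. Crhbp in SS mouse 28 was 2.48 CPM (0.537), with the others at 4.78 to 8.41. Trib1 in SS mouse 32 was 3.76 CPM (0.631), with the others at 6.63 to 9.23.

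The response to the challenge differed between NAc and PFC for Itprid1 by 2.35 on the log2 scale by edgeR's test of the difference, a value that rests on 0 to 15 reads per library in NAc.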

How the results depend on the processing

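With 8 mice a group, calls stood near the limit of the test. Instead of 1 gene, DESeq2 called 2 (Acer2 and Xdh), and 0 were called with the meningeal and choroid plexus scores as terms, without the 9 libraries of high cortical score, within mouse set 1 and within mouse set 2; leaving out 1 library at a time gave 0 to 2. Acer2 kept its direction in every fit run, at -0.82 within set 1 and -0.84 within set 2. For the difference from PFC the replicate block (mouse) called 0 in place of 1, and leaving out 1 mouse at a time gave 0 to 1; for that from dStri the count stayed 0, and the paired fit changed no other call.

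Counts at an unadjusted p under 0.05 moved over 1.5 times with limma-voom (1.54 times the higher genes reported), no filter (5.90 times the higher and 3.31 times the lower), a minimum count of 50 (0.64 times the lower), only the SH and SS libraries (0.67 times the lower), the meningeal and choroid plexus scores (1.81 times the higher), without the 9 libraries (0.59 and 0.54 times) and within set 1 (3.38 and 1.83 times); the causes were not tested. Leaving out 1 library gave 207 to 459 higher genes, over 1.5 times the number reported without SS mouse 22, SS mouse 32 or SH mouse 4, and 0 to 8 effectors at that p in place of 4, with 0 without SH mouse 19 or 27, 1 without SS mouse 15, 2 without SS mouse 31, 7 without SH mouse 24 and 8 without SH mouse 4. Interferon and inflammation genes at that p numbered 7 without SH mouse 24 in place of 4.

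Signs turned in genes and list medians near 0. The median of MAP kinase feedback genes was -0.02 and that of striatal projection neurons 0.004 within set 1, and that of glucocorticoid-responsive genes 0.02 within set 2. Oprm1 was 0.029 with limma-voom and 0.050 within set 2, Fkbp5 0.0096 with the set as a term, 0.029 with the meningeal and choroid plexus scores, 0.0056 and 0.017 within sets 1 and 2, and Drd1 0.0022 with those scores. Within set 1 Per1 was -0.14, Oprd1 0.062, Oprk1 0.17 and Drd1 0.10. Leaving out 1 library gave -0.045 to 0.030 for Oprm1, -0.050 to 0.046 for Fkbp5 and -0.10 to 0.027 for Drd1.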

Other observations

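Signalling genes outside the groups described above showed differences of both signs. Among all genes 47.5% were higher and 52.5% lower. Of 29 genes of cAMP synthesis and breakdown 12 were higher and 17 lower (median -0.01), with Adcy6, an adenylyl cyclase, at 0.26 ± 0.12 (unadjusted p = 0.0284) and Adcy9, another, at -0.13 ± 0.05 (0.0142). Glutamate receptor genes had 9 of 22 higher. Potassium channel genes had 11 of 23 higher, with Kcnj9, a subunit of the channels that Gi-coupled receptors open, at 0.21 ± 0.10 (0.0475). Without the 9 libraries of high cortical score Adcy6 was at 0.10 (0.460) and Kcnj9 at 0.09 (0.272). Of 15 dopamine signalling genes 6 were higher and of 8 opioid genes 3. GABA signalling genes had 6 of 19 higher and circadian clock genes 9 of 20, with none at an unadjusted p under 0.05 in either. Of 22 hypoxia and glycolysis genes 7 were higher, and Depp1, which FOXO factors induce, was at -0.56 ± 0.27 (0.0443), and at -0.53 (0.0999) without those libraries.

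Among cell type markers with no member at an unadjusted p under 0.05, 10 of 14 were lower for oligodendrocytes, 6 of 7 for their precursors, 7 of 12 for astrocytes, 5 of 6 for cholinergic neurons, 6 of 10 for striatal interneurons, 2 of 4 for thalamic and hypothalamic neurons, 1 of 6 for the choroid plexus, 3 of 4 for ependyma and 3 of 5 for blood. Of 5 ventral striatum markers 3 were higher, Cartpt among them. The shares over all genes were 52.5% lower and 47.5% higher.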
